A study of Ascaris suum with 28 samples.

Results

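In embryos of the parasitic roundworm Ascaris suum, 95 genes gave a higher RNA level in polysome gradients than in poly(A) RNA of the same stage, by at least 2 times on each of 4 days. They were chosen by measured values: a gene had to reach 5 RPKM (reads per kilobase of gene model, scaled to the size of the library) in the poly(A) libraries of zygotes from uterus region 4, 24hr embryos, 116hr embryos and 7D embryos. The mean RPKM of its Free, Middle and Heavy gradient fractions on days 0, 1, 5 and 7 then had to be at least 2 times the matching poly(A) value. Of 15399 genes in the table, 6151 met the poly(A) minimum and are called eligible genes here, and 95 of them (1.54%) met the rule on all 4 days. Poly(A) RNA was the denominator, so a gene could qualify through a high gradient value or a low poly(A) value. Per the labels' protocols, which are the same for gradient and poly(A) libraries, RNA of both kinds was poly(A)-selected. By that account the ratio does not set unselected RNA against selected RNA, and tail length was not measured. The genes are known only by identifiers that the files do not pair with names or products, so no role is given for any of them, and their sequences were not used here.

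A polysome gradient separates RNA by sedimentation: RNA that carries few or no ribosomes stays near the top, and RNA loaded with many ribosomes sinks furthest. The upper, middle and lower parts are therefore read as free RNA, lightly loaded RNA and heavily loaded RNA. A poly(A) tail is the run of adenosines at the end of most messenger RNAs, and selection on it enriches messenger RNA from the rest. In many animals the early embryo lives on messages stored by the oocyte, some kept with short tails and few ribosomes until they are needed.

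All samples came from a North American wild population of Ascaris, with no mutation or treatment named in the labels. Gradients were run on zygotes of uterus region 4 (day 0) and on embryos at day 1 (1-cell), day 3 (4 to 8 cells), day 5 (32 to 64 cells) and day 7 (about 256 cells). Poly(A) libraries came from oocytes with their wall, zygotes of uterus regions 1, 2, 3 and 4 (zygote1 to zygote4), embryos at 24 h (1-cell), 46 h (1 to 2 cells), 64 h (2 to 4 cells), 96 h (10 to 26 cells), 116 h (32 to 64 cells) and 7 days (about 256 cells), and L1 and L2 larvae. Embryos were pooled from many female worms, each stage gave 1 library of each kind, and the series text treats the gradient and poly(A) libraries of a stage as replicates, so p-values here measure a spread that also holds differences between preparations or days. The table has 15 fraction columns and 13 poly(A) columns. Column totals ran between 236086 and 918364 RPKM in the fractions and between 311996 and 453746 RPKM in the poly(A) libraries, with the largest in the Middle and Free fractions of day 5 and the smallest in the Heavy fraction of day 0. Read depth is unknown, because the values are RPKM without counts. In these bulk samples, fewer cells of a type and less RNA per cell cannot be told apart.

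The first question was how large the excess was on each day. On day 0 the gradient mean was a median of 2.61 times the poly(A) value in the 95 genes (range 2.00 to 26.3), beside 0.758 times over all eligible genes, of which 3.15% reached 2 times. On day 1 the median was 2.82 times (range 2.00 to 35.2), beside 0.673 times, with 3.43% of eligible genes at 2 times or more. The threshold was thus a rare one before cleavage. Later in cleavage it was a common one: on day 5 the median was 4.58 times, beside 1.46 times over eligible genes, and 24% of eligible genes reached 2 times. On day 7 the median was 3.75 times, beside 1.17 times, with 15.9% of eligible genes past the threshold. Column totals on day 5 were 898668, 918364 and 631311 RPKM in Free, Middle and Heavy, against 373500 RPKM at 116 h. On day 0 they were 540687, 660503 and 236086 RPKM, against 440057 RPKM in zygote4. The larger day 5 ratios hold this difference in scale, so a change with stage cannot be told apart from it. The smallest of the 4 ratios came in the day 0 gradient in 44 genes, in that of day 1 in 36, day 5 in 2 and day 7 in 13. In values as deposited, membership was therefore decided mostly by the 1-cell stages. Without the requirement on day 0, 166 genes would have qualified, and without that on day 1, 150. These ratios chose the genes and carry no test.

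The size of the excess varied widely. In ASU_06987 the gradient mean was 26.3, 35.2, 23.9 and 16.2 times the poly(A) value on days 0, 1, 5 and 7. Its Free, Middle and Heavy fractions held 770.9, 569.4 and 253.5 RPKM on day 0, against 20.2 RPKM in zygote4 poly(A) RNA. On day 7 they held 158.2, 92.9 and 163.2 RPKM, against 8.5 RPKM in 7D poly(A) RNA. The RNA thus stood well above its poly(A) level in each of these fractions. Its poly(A) level was higher in oocytes, at 137.7 RPKM. ASU_03653, next by its smallest ratio, had ratios of 11.4, 9.41, 14.9 and 13.4 on days 0, 1, 5 and 7. In this gene the gradient mean climbed to 1085 RPKM on day 5, against 73 RPKM in 116hr poly(A) RNA. Most genes lay much nearer the threshold: the smallest ratio was under 2.2 in 30 genes, 3 or more in 24 and 4 or more in 7. Just inside were ASU_09566 and ASU_00207, both with a smallest ratio of 2.00 on day 1. Just outside were ASU_12629, at 1.998 on day 1, and ASU_11563, at 1.98 on day 0.

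Which fraction carried the excess was asked by counting, for each single fraction, the genes at 2 times the poly(A) value or more. On day 0 these were 88 genes in Free, 84 in Middle and 13 in Heavy, beside 7.69%, 11.9% and 0.341% of eligible genes. On day 1 they were 90, 79 and 18 genes, beside 6.97%, 9.82% and 0.829%. In values as deposited, the excess in both 1-cell gradients stood in the Free and Middle fractions. In the Heavy fraction the median gene was then close to its poly(A) level. These counts are not corrected for column scale: the day 0 totals were 236086 RPKM in Heavy and 660503 in Middle, against 440057 in zygote4. Of these totals the 95 genes held 5.85% in Heavy and 6.86% in Middle, against 3.27% in zygote4, and they held 12.1% of Free. Later more of the 95 genes passed in Heavy as well. Over eligible genes the Heavy fraction rose too, from a median of 0.502 times poly(A) RNA on day 0 to 1.48 times on day 5. On day 5 the counts were 90 genes in Free, 92 in Middle and 49 in Heavy, beside 13%, 59.6% and 25% of eligible genes. On day 7 they were 90, 88 and 64 genes, beside 9.1%, 47.7% and 10.2%. At these stages passing the threshold in Middle was common in the whole table, and passing it in Free was not.

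The median ratio of the Free fraction to poly(A) RNA was 4.08, 4.73, 7.31 and 4.90 on days 0, 1, 5 and 7. For the Middle fraction it was 3.04, 2.89, 3.97 and 3.43 on the same days. For the Heavy fraction it was 0.966, 1.10, 2.24 and 2.58. The order of the medians was Free, Middle, Heavy on each of these days, in columns used as deposited and with unlike totals. Over eligible genes the Free ratio had the lowest median of the 3 fractions on each of these days, between 0.298 on day 1 and 0.481 on day 0, so the 95 genes stood furthest from the rest of the table in the Free fraction.

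**Figure D1:**
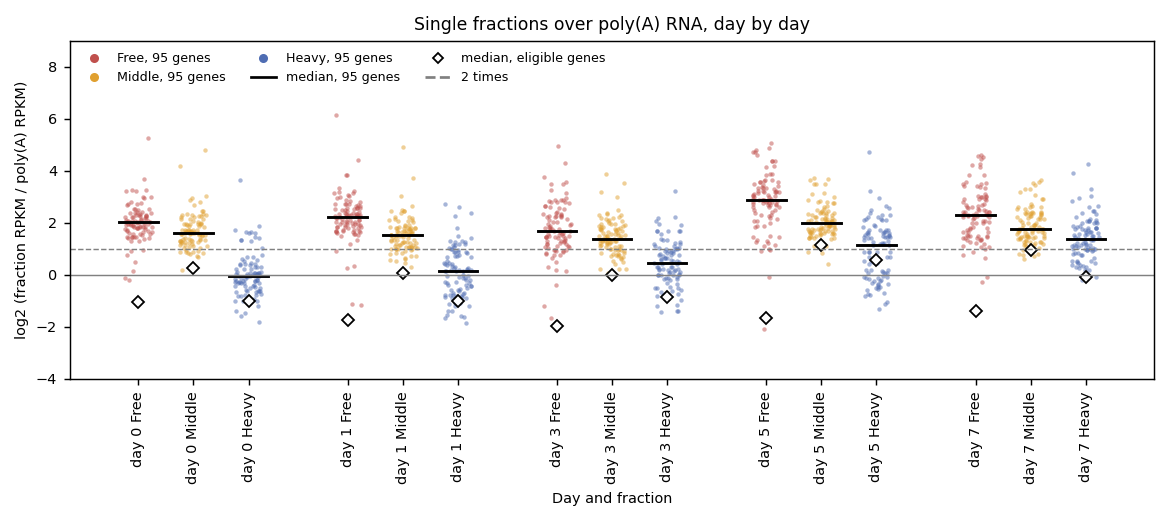
Ratio of each single fraction to the poly(A) RNA of its stage (y axis, log2) by day and fraction (x axis), with 1 point per gene, a line at the median of the 95 genes and a diamond at the median of eligible genes; day 3 is set against the larger of the 64hr and 96hr values. The median of the 95 genes in the Free fraction sits at 4.08 times poly(A) on day 0 and 7.31 times on day 5, while the Heavy median on day 0 sits at 0.966.

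Seen within a gradient, the Free fraction was the highest of the 3 in 70, 82, 63, 77 and 65 of the 95 genes on days 0, 1, 3, 5 and 7. Over eligible genes the Free fraction was highest in 10.8%, 11.8%, 9.28%, 7.72% and 5.53% on these days. That background depended on the scale of the columns: it was 34.5% to 40.1% after median-ratio scaling and 20.8% to 28.9% after quantile normalization, where Free led in 88 to 93 and in 62 to 80 of the 95 genes. As deposited, most of the remaining genes were highest in Middle, and Heavy was highest in 0, 2, 3, 7 and 8 genes. This too depended on scale. With every column scaled to the same total, Heavy was highest in 13, 6, 14, 16 and 20 genes and Middle in 8, 6, 10, 7 and 8. Free was then highest in 74, 83, 71, 72 and 67 genes, beside 14.9%, 13.9%, 11.5%, 6.96% and 7.66% of eligible genes. In values as deposited, the Free fraction led on all 5 days in 41 genes of the 95, beside 167 eligible genes or 2.72% of them. It led on no day in 5 genes, whereas 83.1% of eligible genes had no such day. Of the summed RPKM of the 3 fractions, the median gene had 49.3%, 56.1%, 45.9%, 56.0% and 47.2% in Free on these days, beside 21.6%, 16.0%, 13.7%, 7.66% and 11.5% over eligible genes. A mean over 3 fractions rises with any 1 of them, so a gene high in Free could enter through that fraction alone, and the day 3 gradient is the one in which neither the mean nor its parts entered the rule.

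Day 3 (4 to 8 cells) thus gave the same measure in libraries that had no part in the choice, though no poly(A) library of that stage was analysed. Set against the larger of the 64hr and 96hr values, the gradient mean of day 3 was a median of 2.43 times in the 95 genes (range 0.930 to 18.4) and 0.647 times over eligible genes. It reached 2 times in 72 of the 95 genes (75.8%), beside 4.49% of eligible genes. The excess was thus found again in about 3 of 4 genes, with 1 gradient and no replicate behind it. With every column scaled to the same total, 47 genes reached 2 times on day 3, and 2% of eligible genes did. In single fractions the counts on day 3 were 77 genes in Free, 71 in Middle and 24 in Heavy, beside 6.54%, 10.5% and 2.28% of eligible genes, so the order of the fractions was that of days 0 and 1.

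The day 3 ratio was highest in ASU_06987, at 18.4, and in ASU_05339, at 11.1. ASU_05339 held 784, 461 and 71 RPKM in Free, Middle and Heavy on day 3, against 39.6 RPKM at 64 h and 12.5 RPKM at 96 h in poly(A) RNA. The ratio was lowest in ASU_00292, at 0.930, and in ASU_00299, at 1.18. ASU_00299 had 710.5, 774.2 and 574.2 RPKM in the 3 fractions, against 276.6 RPKM at 64 h and 581 RPKM at 96 h. Both low genes were climbing steeply in poly(A) RNA between these stages. Of the 23 genes under 2 times on day 3, 15 were among those called higher at 116 h than at 24 h. Such calls were made in 42 of all 95 genes and in 16.6% of all genes tested. A link between this rise and the day 3 ratio was not tested.

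The difference between fractions was then tested with limma on log2(RPKM + 1), with day as a term, over 13771 genes. Apart from the 3 of day 3, the 15 columns in this fit are among the values that chose the genes, though the rule set their mean against poly(A) RNA and not fractions against each other, so the calls describe the 95 genes and are no independent evidence of their position. Heavy was lower than Free in 81 of the 95 genes and higher in 2, and 12 did not pass the test; of all genes tested, 19.6% were called lower and 29.8% higher. The median Heavy minus Free difference of the 95 genes was -1.80 on the log2 scale (range -3.66 to 2.98), beside 0.12 over all genes tested. The typical standard error of a gene was 0.34. In 71 genes the difference was below 0 on all 5 days, beside 9.61% of eligible genes. By day, the median difference of the 95 genes was -2.04, -2.23, -1.30, -2.08 and -1.10 on days 0, 1, 3, 5 and 7, beside 0.05, 0.64, 1.00, 2.06 and 1.20 over eligible genes. On day 3 alone, which the rule did not use, 86 of the 95 genes were lower in Heavy than in Free. The share of all genes lower on that day was not counted. Their median difference was -0.007, beside 1.00 over eligible genes, so being lower was common among all genes tested.

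ASU_12129 was the gene most strongly tilted to the top of the gradient. In the order of days 0, 1, 3, 5 and 7 its Heavy fractions held 66.5, 45.7, 186, 288 and 551 RPKM, against 549.3, 653.2, 3465, 8269 and 2909 RPKM in Free. Heavy was below Free within each day, with 1 value per fraction, and the difference was -3.66 ± 0.35 (SE, n = 5 gradients; limma adjusted p = 2.72e-06). ASU_01815 followed, with Heavy values of 42.8, 23.9, 134.5, 127.7 and 183.3 RPKM, against 112.8, 411.1, 2128, 3031 and 1033 RPKM in Free. Its difference was -3.29 ± 0.40 (SE, n = 5 gradients; limma adjusted p = 8.65e-06). In both genes the Free level as deposited was highest on day 5, the 32- to 64-cell stage. The Free column of that day also had the largest total of the 5 Free columns, 898668 RPKM, against 460399 RPKM on day 3.

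The 2 genes that were higher in Heavy were ASU_14563 and ASU_10963. In ASU_14563 the Heavy fractions held 22.3, 44.7, 41, 113 and 41.3 RPKM on days 0, 1, 3, 5 and 7, against 7.2, 3.8, 2.9, 2.8 and 10.9 RPKM in Free. Heavy was above Free on every day, by 2.98 ± 0.39 on the log2 scale (SE, n = 5 gradients; limma adjusted p = 1.58e-05). ASU_10963 had 38.9, 114.1, 80.3, 51.4 and 30.9 RPKM in Heavy, against 21.8, 26.1, 13.8, 11.3 and 7.3 RPKM in Free. Its difference was 1.88 ± 0.30 (SE, n = 5 gradients; limma adjusted p = 6.19e-05). Both genes were thus over-represented in the gradients through the Middle and Heavy fractions, and in the 4 poly(A) libraries of the rule they held 8.3 to 12 RPKM (ASU_14563) and 8.8 to 57.1 RPKM (ASU_10963).

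Middle against Free split the genes further. Middle was lower than Free in 33 genes, higher in 5 and not called in 57, whereas 2.4% of all genes tested were called lower and 54% higher. The median Middle minus Free difference was -0.56 in the 95 genes, beside 0.92 over all genes. In ASU_12129 Middle held 166, 247.2, 742.2, 1367 and 696 RPKM on the 5 days, below Free each day, a difference of -1.999 ± 0.35 (SE, n = 5 gradients; limma adjusted p = 6.11e-05). In ASU_09859 Middle held 399.6, 574.3, 1582, 2731 and 1562 RPKM, against 1519, 1441, 2955, 11136 and 5763 RPKM in Free (difference -1.61 ± 0.36, SE; limma adjusted p = 0.00077). ASU_14563 and ASU_10963 led the other way, with differences of 2.91 ± 0.39 and 2.63 ± 0.30 (SE; limma adjusted p = 5.45e-06 and 1.69e-06). Without day 5, 20 genes were called lower in Middle; with columns scaled by the median ratio of their genes, 90 were.

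Heavy was lower than Middle in 67 of the 95 genes and higher in none by limma (1 at an unadjusted p under 0.05), beside a background of 50.1% called lower and 0.312% called higher. The median Heavy minus Middle difference was -1.20, beside -0.83 over all genes tested. ASU_07661 was lower in Heavy on every day: its Heavy fractions held 103.5, 65.1, 61.8, 61.9 and 53.3 RPKM on the 5 days, against 546.4, 341.1, 398.6, 301.2 and 126.6 RPKM in Middle (difference -2.19 ± 0.28, SE; limma adjusted p = 0.000133). ASU_01815 had the most negative value, -2.42 ± 0.40 (SE; limma adjusted p = 0.000429). This comparison depended on the scale of the columns. After quantile normalization 7 genes were lower and 2 higher, and after median-ratio scaling 3 were lower and 2 higher. The all-gene median moved to -0.03 and -0.11 under these scalings.

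Heavy minus Free kept its sign under both scalings. Its member median lay 1.93 below the all-gene median as deposited, 1.03 below it after quantile normalization and 2.22 below it after median-ratio scaling. The number of genes called lower in Heavy was 68 after quantile normalization, 88 after median-ratio scaling and 36 without the day term.

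**Figure D2:**
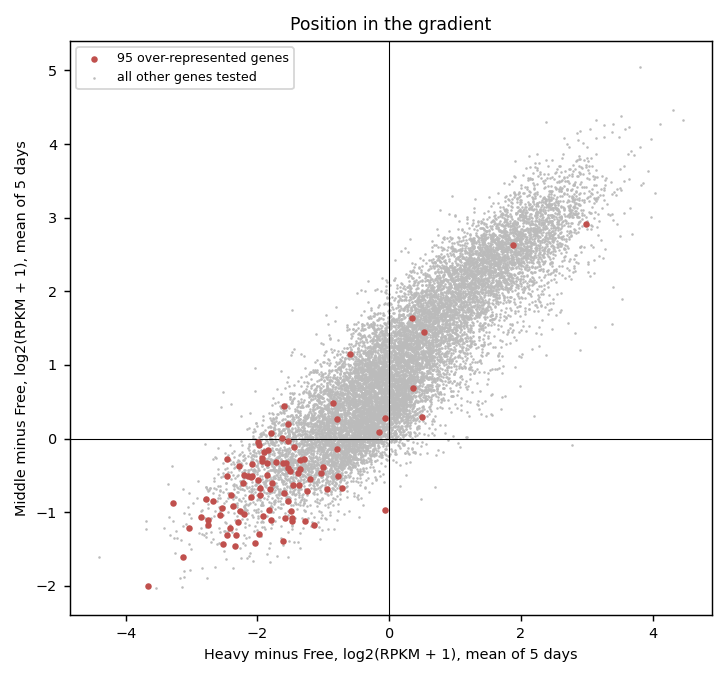
Heavy minus Free (x axis) against Middle minus Free (y axis), both as log2(RPKM + 1) differences averaged over the 5 gradients, with 1 red point for each of the 95 genes and 1 grey point for every other gene tested. Of the 95 genes, 81 were called lower in Heavy than in Free and lie left of 0, and ASU_14563 and ASU_10963 lie at the upper right, at 2.98 and 1.88 on the x axis.

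Whether gradient position moved with age was asked by fitting a change per day to Heavy minus Free. It rose with day in 22 of the 95 genes and fell in none by limma (35 upward and 0 downward at an unadjusted p under 0.05); of all genes tested 14.2% rose and 0.363% fell. The median change per day was 0.11 in the 95 genes and 0.17 over all genes, on the log2 scale. ASU_01386 shifted most: Heavy held 84.8, 72.8, 128.5, 203 and 154.4 RPKM on days 0, 1, 3, 5 and 7, against 1438, 684.3, 444.1, 361.8 and 156.5 RPKM in Free. Its Free level was lower at each later day while Heavy was highest on day 5, and by day 7 the fractions were about equal, a change of 0.58 ± 0.09 per day (SE, limma adjusted p = 0.0105). ASU_14387 followed at 0.56 ± 0.10 per day (SE, limma adjusted p = 0.0105), with 28.3 RPKM in Heavy and 226.5 RPKM in Free on day 0, and 25.8 RPKM in Heavy and 18.5 RPKM in Free on day 7. Without day 0 or without day 5, 14 genes rose. None of the calls held without day 1, after quantile normalization or after median-ratio scaling, where 0 genes rose and 0 fell by limma, and under both scalings the member median was below 0, at -0.02 and -0.11 per day.

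Across development the 95 genes were more abundant in poly(A) RNA than most. Their median was 177.9 RPKM in oocytes, 119.7 in zygote1, 85.9 in zygote2, 66.9 in zygote3 and 68.9 in zygote4. It was 63.7 RPKM at 24 h, 72.9 at 46 h, 71.4 at 64 h, 85.1 at 96 h, 73 at 116 h and 48.8 at 7 days, then 74.9 in L1 and 87.5 in L2 larvae. Over eligible genes the median was 17.2 RPKM in oocytes, 25.1 in zygote4, 22.2 at 7 days and 11.7 in L2. Their median was above that of eligible genes in each of these libraries. Of the 95, 78 exceeded the upper quartile of eligible genes in oocytes (35.5 RPKM), 75 in zygote1, 53 at 46 h, 69 in L1 and 70 in L2. The 4 libraries the rule divides by favour genes that are low there, so a low level in zygote4 and 7D beside neighbouring stages is in part what was chosen.

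**Figure D3:**
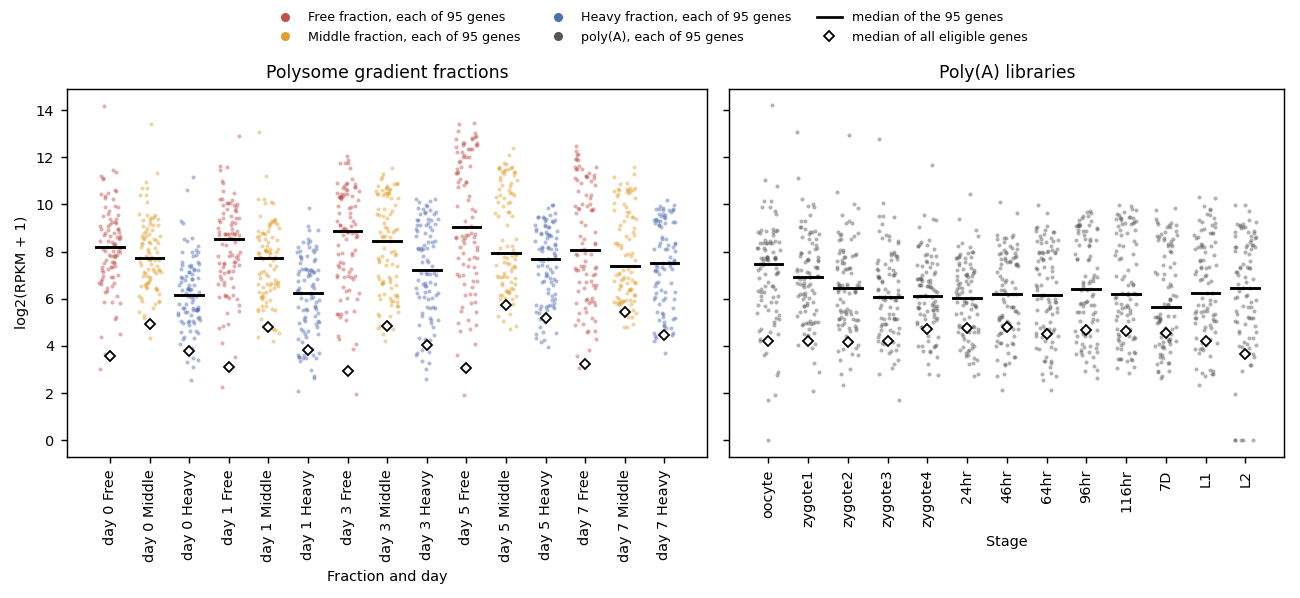
Levels of the 95 genes (y axis, log2(RPKM + 1)) in the 15 fraction columns and the 13 poly(A) libraries (x axis), with 1 point per gene, a line at their median and a diamond at the median of eligible genes. Median levels in the Free fraction reach 519.1 RPKM on day 5, and in poly(A) RNA they are highest in oocytes, at 177.9 RPKM.

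In the fractions the median was 294.4, 370.4, 473.9, 519.1 and 266.1 RPKM in Free on days 0, 1, 3, 5 and 7. In Middle it was 210.7, 210, 348.7, 241.7 and 165.3 RPKM, and in Heavy 69.5, 74.4, 146.2, 203 and 183.3 RPKM. Over eligible genes the Free median was 11, 7.5, 6.7, 7.3 and 8.4 RPKM on these days, so the Free level of the 95 genes was far above that of a typical gene. The Heavy median rose to about the Middle median by days 5 and 7. Over eligible genes the Heavy median was also higher then, at 34.8 and 20.7 RPKM, against 12.7 RPKM on day 0.

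The 95 genes held a large part of the Free columns. Their summed RPKM was 12.1%, 14.0%, 17.1%, 23.5% and 19.2% of the Free totals on days 0, 1, 3, 5 and 7. It was 6.86%, 7.34%, 10.6%, 10.0% and 7.29% of the Middle totals and 5.85%, 4.69%, 7.98%, 4.25% and 6.53% of the Heavy totals. In poly(A) RNA the share ran between 2.97% at 24 h and 9.59% in oocytes. Free therefore gave them a share more than 2 times that of either deeper fraction on days 5 and 7. One gene weighed on the early values: without ASU_00235 the share was 8.71% of Free on day 0 and 5.44% of oocyte poly(A) RNA, while on day 5 it was 23.5% of Free with or without it.

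**Figure D4:**
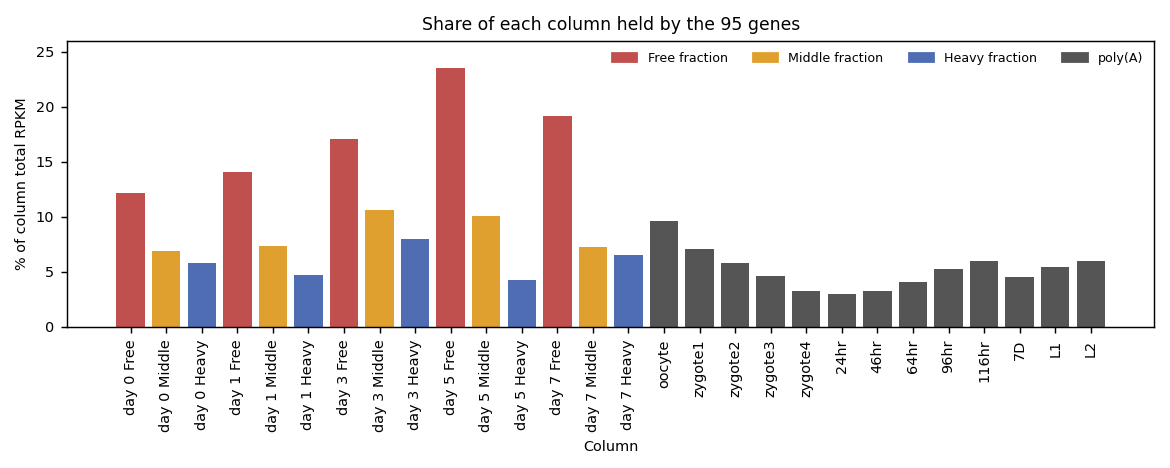
Share of each column's summed RPKM held by the 95 genes (y axis, percent) in the fraction columns and the poly(A) libraries (x axis, 1 bar per column). The Free share is highest on day 5, at 23.5%, and the poly(A) share is highest in oocytes, at 9.59%.

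ASU_00235 had the highest mean poly(A) level of the 95 genes. It held 18835 RPKM in oocytes, 8544, 7828, 6938 and 3270 RPKM in zygote1 to zygote4, 1384 RPKM at 24 h, 1082 at 46 h, 787.6 at 64 h, 97.8 at 96 h, 22 at 116 h, 31.8 at 7 days, 42.2 in L1 and 10.4 in L2. Its gradient mean was 10515, 5745, 1430, 242.1 and 101.9 RPKM in the 5 gradients. The RNA was thus lost in both preparations, and it stayed 3.22, 4.15, 11.0 and 3.20 times higher in the gradient on the days of the rule. ASU_07514, next in mean level, declined less, with poly(A) values between 2248 RPKM in zygote1 and 200.6 RPKM in L1 and gradient means of 1530, 1344, 1555, 1019 and 655.3 RPKM on the 5 days.

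The excess on day 0 was also set against the stages before zygote4. The day 0 gradient mean was a median of 1.48 times the oocyte value, and 28 of the 95 genes reached 2 times, beside 26.3% of eligible genes, a share near that background. Against zygote1 the median was 1.77 times and 38 genes reached 2 times, beside 7.33%. Many of the genes had thus been about as high in poly(A) RNA earlier as they were in the day 0 gradient. Oocyte RNA was at least 2 times zygote4 in 43 of the 95 genes, beside 7.02% of eligible genes. Against the largest of the oocyte and 4 zygote values, the day 0 gradient mean had a median of 1.21 times, and 17 genes reached 2 times, beside 0.471% of eligible genes. The rule favours a low zygote4 value and a high day 0 gradient mean. All counts in this paragraph are therefore in part what was chosen. The oocyte library was assigned to its column as the only poly(A) library of that stage.

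The poly(A) peak fell at different stages. It lay in oocytes in 27 of the 95 genes (12.0% of eligible genes) and at 116 h in 23 (9.88%), with 13 peaking in zygote1 (4.76%), 9 in L2 (4.80%) and 8 in L1 (4.36%). The lowest poly(A) library was zygote4 in 18 genes, 7D in 17, zygote3 in 13 and L2 in 12, beside 0.992%, 2.00%, 9.64% and 36.3% of eligible genes. The rule divides by zygote4 and 7D and so favours genes that are low there. The ratio of the highest to the lowest poly(A) value had a median of 8.17 in the 95 genes and 6.5 over eligible genes. Steady RNAs were a minority in both sets: 12 of the 95 genes (12.6%) varied by less than 4 times, beside 21.9% of eligible genes. At least 1 library was listed at 0 in 5 of the 95 genes and in 252 of the 6151 eligible genes.

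Stage steps were tested with limma over both preparations of zygote4/day 0, 24hr/day 1, 116hr/day 5 and 7D/day 7, with preparation as a term, over 12961 genes. All 8 libraries of this fit entered the rule, although the rule set preparations against each other within a stage and not stages, so these calls too describe the chosen genes and give no independent evidence. The most calls came between 24 h and 116 h. At 116 h, 42 of the 95 genes were higher than at 24 h, 7 were lower and 46 did not pass the test, and of all genes tested 16.6% were called higher and 24.9% lower. The median difference was 0.85 on the log2 scale in the 95 genes and -0.03 over all genes, with a typical standard error of 0.42. In 56 genes both preparations were higher at 116 h and in 24 both were lower, beside 46.8% and 14.8% of eligible genes. In poly(A) RNA alone the median difference was 0.56 in the 95 genes and -0.06 over eligible genes, whereas in the gradients it was 1.06 and 0.95. The 95 genes stood apart from eligible genes in poly(A) RNA more than in the gradients. After quantile normalization 35 genes were called higher and 19 lower, and after median-ratio scaling 47 and 15. Without the 24hr or the 116hr poly(A) library 4 genes were called lower.

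The 42 genes called higher at 116 h had a median of 212.1 RPKM in oocytes, 120.3 in zygote1 and 72.3 in zygote4. Their median poly(A) level was 475.8 RPKM at 116 h, against 98.6 RPKM at 24 h, and stayed at 310.2 RPKM at 7 days, 329.8 RPKM in L1 and 301.4 RPKM in L2. Their median Free level was 424.7, 1262, 4265 and 1989 RPKM on days 1, 3, 5 and 7. On day 5 their median was 4265 RPKM in Free, 1882 in Middle and 410 in Heavy. Their median was thus high in oocytes, lower in zygotes and higher again during cleavage. The rise between 24 h and 116 h is how these genes were taken, and the rule favours low zygote4 and 24hr values. Of the 42, 38 were among the genes called lower in Heavy than in Free, a share near that of the 95 genes as a whole (81 of 95). Of the 7 called lower, the median was 14.1 RPKM at 116 h, against 57.1 RPKM at 24 h, and 211.2 RPKM in oocytes.

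ASU_12962 rose most. In poly(A) RNA it held 476.9 RPKM at 116 h, against 46.6 RPKM at 24 h, and its gradient mean was 2714 RPKM on day 5, against 98.6 RPKM on day 1. Both preparations moved the same way, by 4.05 ± 0.44 (SE, n = 2 libraries per stage; limma adjusted p = 9.14e-06). ASU_11637 held 302 RPKM at 116 h, against 21.7 RPKM at 24 h, and 1160 RPKM in the day 5 gradient, against 62.9 RPKM in the day 1 gradient (difference 3.96 ± 0.39, SE; limma adjusted p = 4.1e-06). ASU_00235 fell most, by 5.24 ± 0.48 on the log2 scale (SE; limma adjusted p = 2.75e-06). ASU_03412 fell to 18.3 RPKM at 116 h, against 404 RPKM at 24 h, and to 121.8 RPKM in the day 5 gradient, against 1114 RPKM in the day 1 gradient (difference -3.79 ± 0.44, SE; limma adjusted p = 1.39e-05). In L1 larvae ASU_03412 stood at 159.3 RPKM, above its 7D value of 17.4 RPKM.

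**Figure D5:**
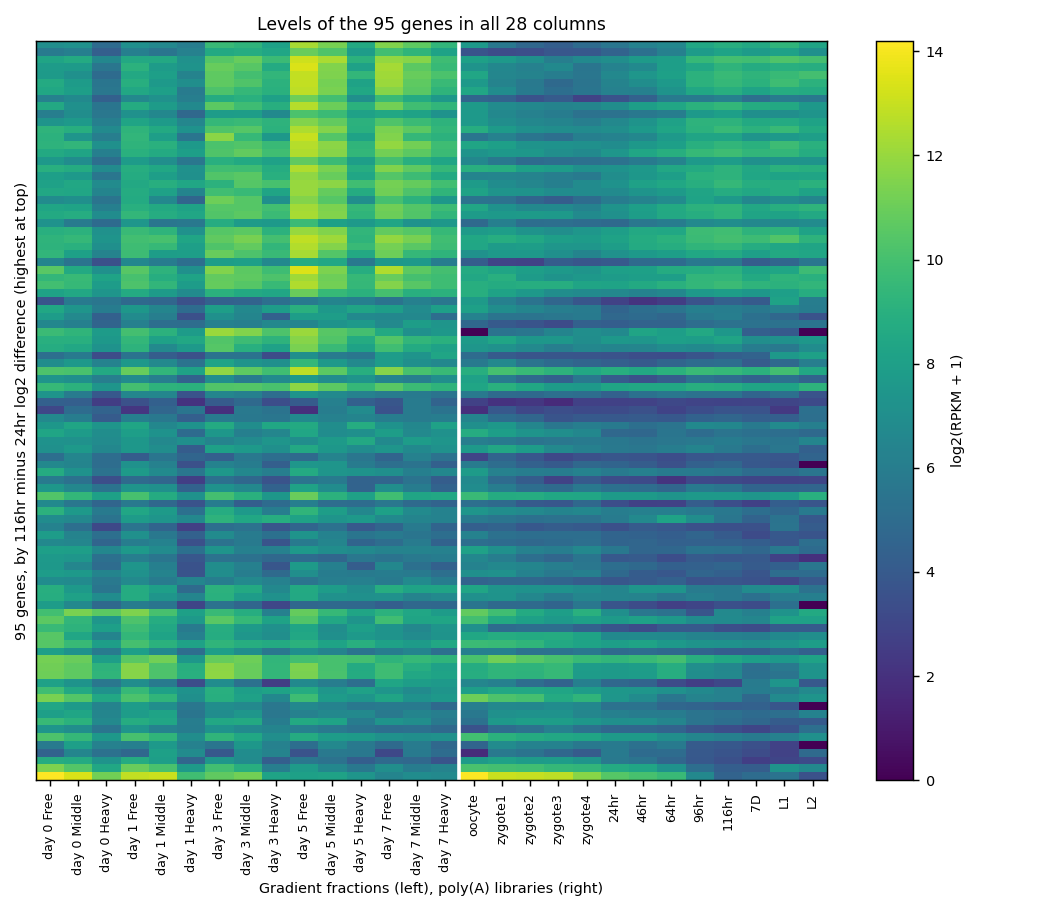
Level of each of the 95 genes (rows, ordered by the 116hr minus 24hr difference with the highest at the top) in the 15 fraction columns (left) and 13 poly(A) libraries (right), coloured by log2(RPKM + 1). The 42 genes called higher at 116 h lie in the upper rows and are strongest in the Free fraction of day 5, where their median is 4265 RPKM.

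The steps on either side gave few calls. Between zygote4 and 24 h, 2 of the 95 genes were called lower at 24 h and none higher by limma (17 lower and 4 higher at an unadjusted p under 0.05), beside 0.255% and 1.33% of all genes tested. The median difference was -0.19 in the 95 genes and 0.00 over all genes, and it was 0.08 without the zygote4 poly(A) library. ASU_14387 held 12.6 RPKM at 24 h, against 47.7 RPKM in zygote4, and 37.7 RPKM in the day 1 gradient, against 118 RPKM in the day 0 gradient (difference -1.73 ± 0.41, SE; limma adjusted p = 0.0444). ASU_04304 held 14.2 RPKM at 24 h, against 45.3 RPKM in zygote4, and 41 RPKM in the day 1 gradient, against 137.4 RPKM in the day 0 gradient (difference -1.66 ± 0.40, SE; limma adjusted p = 0.0479). Both RNAs fell in both preparations, but each call was lost under 10 of 16 alternatives, leaving none called when the poly(A) library or gradient of either stage, or of 116 h/day 5, was left out.

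At 7 days, 1 of the 95 genes was called higher than at 116 h and 2 lower, beside 6.55% and 1.2% of all genes tested. The median difference was -0.65 in the 95 genes and -0.15 over all genes, and 84 of the 95 were lower in both preparations, beside 63.4% of eligible genes. Over eligible genes the median difference was -0.16 in poly(A) RNA and -0.52 in the gradients, and the column totals of all 3 fractions were lower on day 7 than on day 5. Without the day 1 gradient, which entered the shared spread, 6 genes were called lower, 1 was without any of the 116 h/day 5 or 7D/day 7 libraries, and median-ratio scaling gave 18. ASU_01515 dropped most: it held 18.5 RPKM at 7 days, against 179 RPKM at 116 h, and 240.9 RPKM in the day 7 gradient, against 2266 RPKM in the day 5 gradient (difference -3.22 ± 0.46, SE; limma adjusted p = 0.000242). This RNA was listed at 0 in oocytes, reached 374.4 RPKM at 96 h and was listed at 0 again in L2. ASU_14954 held 14 RPKM at 7 days, against 25.5 RPKM at 116 h, and 32.3 RPKM in the day 7 gradient, against 136.4 RPKM in the day 5 gradient (difference -1.43 ± 0.42, SE; limma adjusted p = 0.0469), a call lost under 8 of 16 alternatives. ASU_09621 rose, to 60.2 RPKM at 7 days, against 7.4 RPKM at 116 h, and to 254.4 RPKM in the day 7 gradient, against 68.2 RPKM in the day 5 gradient (difference 2.37 ± 0.47, SE; limma adjusted p = 0.00327). Its call was lost without the 116hr poly(A) library, where 0 of the 95 genes were called higher, and it went on to 169.4 RPKM in L1.

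The genes with Free highest on all 5 days and those with Free never highest differed in level. The 41 genes of the first kind had a median of 211.9 RPKM in oocytes, 93.8 in zygote4, 96 at 116 h and 62.6 at 7 days, and 881.7 RPKM in Free on day 5. The 5 genes of the second kind had medians of 6.4 RPKM in oocytes, 15.6 in zygote4, 14.1 at 116 h and 11.5 at 7 days, and in the day 5 gradient 28.7 RPKM in Free, 79.2 in Middle and 52.7 in Heavy. Their medians were 52.7 RPKM in zygote1 and 56.5 RPKM at 24 h, above the 17.5 and 26.2 RPKM of eligible genes, so they were scarce at some stages and not at others. ASU_09566, just inside the threshold, was one of them. These sets were chosen by fraction values, so the comparison is a description with no test.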

How the data were processed

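RNA levels were read from 1 table of RPKM values (reads per kilobase, scaled to library size) that the authors deposited, with 15399 genes in 28 columns. Per the labels' protocols, which are the same for gradient and poly(A) libraries, RNA was poly(A)-selected, and per the submitters' processing notes reads were aligned with Bowtie 0.12.7. Neither the genome build nor the annotation or counting step was given in the sources used here. Values carry 1 decimal and no counts, so library depth and counting errors cannot be stated. Labels map 18 of 28 samples to columns. The other 10 (mixed tissues, total and ribosome-depleted RNA) were not analysed here. The oocyte and 64hr columns were assigned as the only poly(A) libraries of those stages.

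Sequencing strategies differed between libraries, per the series text, and their part in the differences was not tested. Columns were used as deposited. Fraction and stage differences were fitted with limma 3.58.1 (R 4.3.3, intensity trend) on log2(RPKM + 1), for genes at 1 RPKM or more in at least 2 libraries of the fit, calling genes at a Benjamini-Hochberg adjusted p under 0.05 taken over the whole fit; fold changes of low genes are understated on this scale. Fraction fits used 15 columns with day as a term, so the 5 gradients stand in for replicates (8 residual degrees of freedom, 6 for the change per day). Stage fits used 8 libraries with preparation as a term (3 residual degrees of freedom), the gradient value being the mean of 3 fractions. The fits were also run on values simulated from the fitted models with known changes added, with no pass mark set.

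The genes, the rule and the tests were chosen with earlier results of these data known. Named were up to 2 genes at each end: the largest excess, those on both sides of the threshold, the most abundant in poly(A) RNA, the largest called differences with one sign on all days or in both preparations (no such condition for the change per day), and the extremes on day 3. Alternatives were the pseudocount, filters, column scalings, the intensity trend, the day term, the rule's thresholds, the way fractions were averaged, and leaving out each day or library.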

Additional observations from a re-analysis of the deposited data

Results flagged for a closer look

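The difference between the Heavy and Free fractions changed between days in 22 of the 95 genes, by limma's test of a change per day (adjusted p under 0.05), each time upward with age; the median change over the 95 genes was 0.11 per day on the log2 scale, beside 0.17 over all genes tested, of which 14.2% rose. None of these calls held after quantile normalization, after median-ratio scaling or without day 1, where 0 genes rose. Heavy was above Free in 2 of the 95 genes on all 5 days and below it in 71.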

How the results depend on the processing

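Membership depended on the rule and on the scale of the columns. The 95 genes became 265 at 1.5 times and 24 at 3 times, 146 with a minimum of 1 RPKM, 49 with a geometric mean of fractions, 40 without Free and 195 without Heavy, and 112 to 166 when 1 day was left out. Scaling to the same total gave 39 genes (36 of them among the 95), median-ratio scaling 350 (91 shared) and quantile normalization 62 (42 shared). The day 3 count of 72 became 47 at the same total.

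Heavy below Free was called in 36 genes without the day term and in 74 to 83 with 1 day left out, and Heavy above Free in 2 to 3. Middle below Free was called in 90 genes after median-ratio scaling, 6 without the day term and 20 to 35 with 1 day left out; Middle above Free in 2 under either scaling and 4 to 5 with 1 day left out. Heavy below Middle fell to 7 genes (quantile), 3 (median ratio) and 4 (no day term), with 54 to 65 when 1 day was left out. Heavy above Middle was called in 1 gene with a filter at 10 RPKM, 2 under either scaling and 0 to 1 with 1 day left out. The upward change per day was called in 0 genes under either scaling and 0 to 16 with 1 day left out, the downward one in 0 to 1.

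For 24 h over zygote4, genes called higher were 1 with the filter at 10 RPKM, 6 (quantile), 4 (median ratio) and 0 with any library left out. Genes called lower were 3 with that filter or after quantile normalization, 12 (median ratio), 0 with a pseudocount of 5, no filter, no trend or a mean of log2 fractions, and 0 to 2 with 1 library left out. The member median ran between -0.33 and 0.0782 with 1 library left out, and was above 0 only without zygote4 poly(A) RNA. For 116 h over 24 h, genes called lower were 19 (quantile), 15 (median ratio) and 4 to 10 with 1 library left out, and genes called higher 32 to 43. For 7D over 116 h, genes called higher were 0 without a filter, 2 under either scaling and 0 to 1 with 1 library left out. Genes called lower were 1 with a pseudocount of 5, no filter, no trend or a mean of log2 fractions, 3 (quantile), 4 (filter at 10 RPKM), 18 (median ratio) and 1 to 6 with 1 library left out. The causes were not tested.

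The fits hold the day (fractions) or the preparation (stages) as a term, and the labels give no replicate numbers that pair samples further. Depth, which would set the precision of low values, is unknown, and each stage rests on 1 pool of embryos.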
